A study of Mus musculus with 8 samples.

Results

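The genes described here are Ifng, Tbx21, Il12rb2, Il18r1 and Il18rap, 5 of the 31053 genes counted in every library, chosen by name as core genes of type 1 helper (Th1) T cells and their receptors for interleukin 12 (IL-12) and interleukin 18 (IL-18). They were followed in 8 single-cell RNA libraries made from colonic lamina propria cells that had been enriched for CD4+ T cells. The mice were C57BL/6, 10 to 12 weeks old, kept on normal diet in a specific pathogen free facility. Wildtype mice and mice with a mutant RORgt (named RORgtS182A in the series title and S203AKI in the library names) were either left on regular water or put on 2% DSS (dextran sulfate sodium, an agent that damages the lining of the colon) in the water for 7 days and then regular water for 3 days. All mice were harvested on day 10, and each of the 4 groups (wildtype untreated, S203AKI untreated, wildtype DSS, S203AKI DSS) had 2 libraries, described by the submitters as independent biological replicates. The labels do not say how many mice went into a library, and the point mutation cannot be read from gene counts.

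Th1 cells are the CD4 T cells that fight intracellular microbes with interferon-gamma, the product of Ifng. T-bet, the product of Tbx21, is the transcription factor that sets up this fate and binds the Ifng locus. Il12rb2 encodes the signalling chain of the IL-12 receptor, which activates STAT4. Il18r1 and Il18rap encode the ligand-binding and the accessory chain of the IL-18 receptor, which signals through MyD88 and the IRAK kinases. IL-12 and IL-18 act together on T cells and natural killer (NK) cells to raise interferon-gamma output, and intestinal Th17 cells can also make interferon-gamma.

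The libraries held 34497509 to 46960005 UMIs (unique molecular identifiers, each standing for 1 captured RNA molecule) in 100673 barcodes. The authors' list of cells they kept held 27420 of these barcodes. Every listed cell had at least 1 Cd4 UMI. Of the 69301 other barcodes with at least 400 genes and at most 20% mitochondrial UMIs, 5656 had a Cd4 UMI. Of the listed cells, 20759 fell into T cell clusters and are called CD4 T cells below, 1782 to 3752 per library, with 6204336 to 14914849 UMIs per library and a median of 1943 to 2879 UMIs per cell. The other 6661 listed cells fell into clusters of macrophages, fibroblasts and further types, and 1176 barcode sequences occurred in more than 1 library. Levels below are UMIs summed over the cells of a class in a library, scaled to 1000000 UMIs of those cells (CPM). The 6 heat-shock genes counted together stood apart in the untreated S203AKI libraries: 36.2% and 30.4% of their CD4 T cells were among the 10% of all CD4 T cells with the highest heat-shock share, against 1.96% to 7.83% in the other 6 libraries. Results are therefore also given without those cells where the call changes.

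The 5 genes lie at 4 places in the mouse genome (GRCm38). Ifng spans chr10:118441046-118445892 on the plus strand, 231 kb from Il22, and 336 of its 1295 exon bases are also covered by the unconfirmed transcript model Gm49751 on the same strand. Tbx21 spans chr11:97098071-97115331 on the minus strand. Il12rb2 spans chr6:67291318-67376188 on the minus strand, 46.7 kb from Il23r, and 1519 of its 3794 exon bases lie opposite exons of Serbp1 on the plus strand. Whether the counting used strand is not given in the sources used here, so Il12rb2 counts could hold Serbp1 reads if it did not. Il18r1 (chr1:40465552-40500854) and Il18rap (chr1:40515362-40551705) are neighbours on the plus strand, 14.5 kb apart, in the interleukin 1 receptor cluster, and Il18r1 starts 136 bases after the end of Il1rl1.

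The upstream sequences of 4 genes are shown because these genes differed in how they moved with DSS or across cell classes, and because factors of this pathway act on such regions. They come from RefSeq promoters (GRCm38.p6), run 5′ to 3′ on the gene's strand and end at the base before the annotated start. Capitals mark matches, on either strand, to 4 short motifs: TCACAC (T-box), TTCNNNGAA (STAT), TGANTCA (AP-1) and GGAAA (NFAT).
Ifng (chr10:118440796-118441045, plus strand): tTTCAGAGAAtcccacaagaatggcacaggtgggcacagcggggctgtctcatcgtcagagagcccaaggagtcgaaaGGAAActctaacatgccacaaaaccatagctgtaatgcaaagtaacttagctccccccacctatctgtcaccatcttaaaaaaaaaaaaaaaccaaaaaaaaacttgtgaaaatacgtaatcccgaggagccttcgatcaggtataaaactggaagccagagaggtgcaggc
Tbx21 (chr11:97115332-97115581, minus strand): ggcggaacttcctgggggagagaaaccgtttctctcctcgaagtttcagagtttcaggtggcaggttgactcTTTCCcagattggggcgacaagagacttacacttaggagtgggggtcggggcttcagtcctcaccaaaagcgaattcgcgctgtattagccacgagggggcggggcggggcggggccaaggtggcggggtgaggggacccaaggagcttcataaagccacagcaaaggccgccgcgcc
Il12rb2 (chr6:67376189-67376438, minus strand): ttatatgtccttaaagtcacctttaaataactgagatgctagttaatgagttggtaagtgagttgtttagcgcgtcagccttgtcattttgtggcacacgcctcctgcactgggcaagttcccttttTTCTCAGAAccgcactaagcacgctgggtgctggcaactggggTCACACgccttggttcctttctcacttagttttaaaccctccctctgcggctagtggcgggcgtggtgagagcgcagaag
Il18r1 (chr1:40465416-40465551, plus strand): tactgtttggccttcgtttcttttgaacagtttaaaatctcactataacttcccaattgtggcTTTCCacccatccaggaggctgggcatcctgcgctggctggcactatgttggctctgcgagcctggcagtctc
The window of Ifng held 1 STAT and 1 NFAT match, beginning 249 and 172 bases before the start. Tbx21 held 1 NFAT match, 178 bases before the start. Il12rb2 was the 1 of the 5 genes with a T-box match, 80 bases before the start, and it held a STAT match 123 bases before the start. Il18r1 held 1 NFAT match in the 136 bases that do not belong to Il1rl1, and the window of Il18rap, not printed, held 1 NFAT match 19 bases before the start. Of 32536 mouse promoters cut to the same 250 bases, 12.1% held the T-box letters, 7.04% the STAT letters, 6.73% the AP-1 letters and 55.7% the NFAT letters. In the last 136 bases, the length of the Il18r1 window, 34.6% held the NFAT letters. The matches describe letters and are no measure of binding.

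Over all CD4 T cells and averaged over the genotypes, Ifng and Tbx21 were lower after DSS, and Il18r1, the binding chain of the IL-18 receptor, was higher. Il12rb2 and Il18rap did not pass this test. In sums over many cells, fewer cells with a transcript and less of it per cell cannot be told apart. Ifng stood at 181 and 281 CPM in wildtype untreated, 284 and 228 in S203AKI untreated, 121 and 149 in wildtype DSS and 142 and 133 in S203AKI DSS. The 4 DSS libraries all lay below the 4 untreated ones. Averaged over the genotypes, Ifng fell by 0.91 ± 0.14 (SE) on the log2 scale after DSS, a fold of 0.532, with an adjusted p of 0.00517 (edgeR's quasi-likelihood test on summed UMIs, 4 libraries against 4, Benjamini-Hochberg over all genes).

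Tbx21 stood at 29.0 and 25.1 CPM in wildtype untreated, 30.1 and 24.8 in S203AKI untreated, 11.9 and 19.2 in wildtype DSS and 11.7 and 21.4 in S203AKI DSS. Again no DSS library reached the lowest untreated one, and replicate 2 was the higher of the DSS libraries in each genotype. Tbx21 fell by 0.83 ± 0.21 on the log2 scale (fold 0.562, edgeR adjusted p 0.0279). The libraries held 84 to 319 Tbx21 UMIs each. For both Ifng and Tbx21 the 4 DSS libraries lay below the untreated range. The share of all genes that lie apart in this way was not computed, so the gap is not read as particular to these genes.

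The receptor chains did not move as a block. Il18r1 stood at 232 and 190 CPM in wildtype untreated, 165 and 175 in S203AKI untreated, 236 and 226 in wildtype DSS and 298 and 233 in S203AKI DSS. The lowest DSS library, at 226, lay under the highest untreated one, at 232, so the groups overlapped. Il18r1 rose by 0.31 ± 0.10 on the log2 scale (fold 1.24, edgeR adjusted p 0.0466). Il18rap, its partner chain, stood at 92.4, 78.0, 65.8 and 63.0 CPM in the 4 untreated libraries (wildtype, then S203AKI) and at 73.0, 81.9, 85.0 and 71.4 after DSS. The ranges lay within each other, and the log2 difference was -0.00 ± 0.09 (edgeR adjusted p 0.977). Il12rb2 stood at 94.1 and 70.7 CPM in wildtype untreated, 58.2 and 49.2 in S203AKI untreated, 42.5 and 64.1 in wildtype DSS and 41.5 and 65.5 in S203AKI DSS. These groups overlapped, with a log2 difference of -0.39 ± 0.19 (edgeR adjusted p 0.190).

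**Figure D1:**
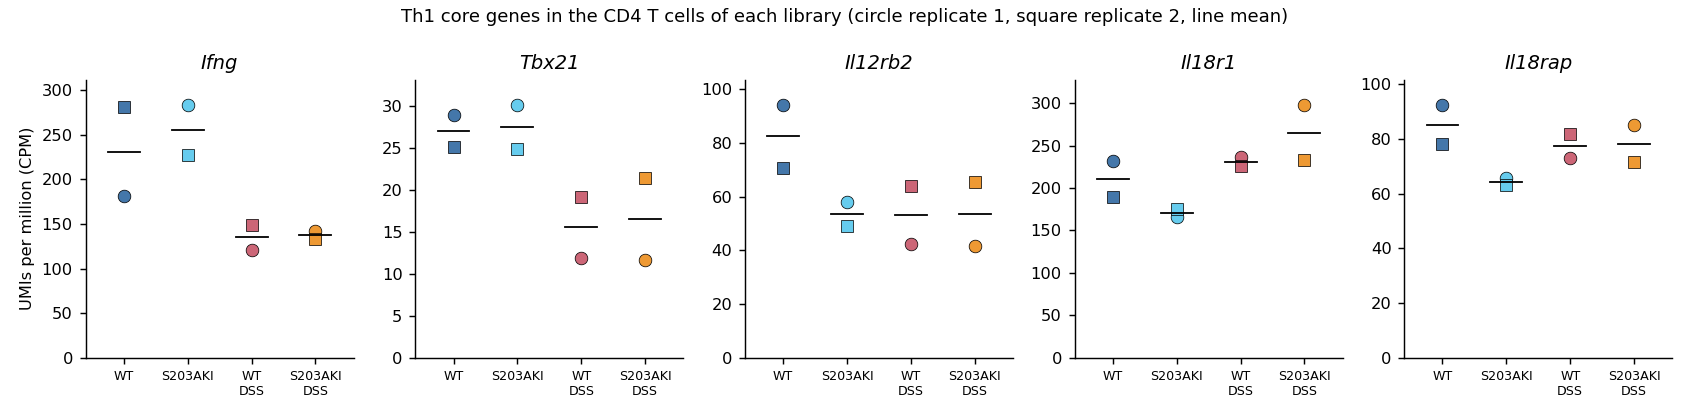
Level of each of the 5 genes (CPM, linear axes from 0) in the CD4 T cells of the 8 libraries, by group; circles are replicate 1, squares replicate 2 and lines the group mean. The 4 DSS libraries lie below the 4 untreated ones for Ifng (121 to 149 against 181 to 284). They also do for Tbx21 (11.7 to 21.4 against 24.8 to 30.1), and the ranges overlap for the other 3 genes. The share of all genes without overlap was not computed.

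In all, 3 of the 5 genes passed the test for DSS averaged over the genotypes, where 19.1% of the 11063 genes tested did (9.53% higher, 9.6% lower). The Ifng call held without each of the 8 libraries in turn, with log2 differences of -1.05 to -0.73 and adjusted p-values of 0.00214 to 0.0299 (edgeR). The Tbx21 call was lost without wildtype untreated replicate 1 (-0.78) or replicate 2 (-0.88), S203AKI untreated replicate 1 (-0.77) or replicate 2 (-0.89), or wildtype DSS replicate 1 (-0.66), and without the cells of highest heat-shock share (-0.64, edgeR adjusted p 0.0869). The Il18r1 call was lost without any single library except S203AKI DSS replicate 2, at log2 differences of 0.23 to 0.38 and edgeR adjusted p-values of 0.0508 to 0.204. It was also lost with DESeq2 (0.31, DESeq2 adjusted p 0.0503) and without doublets (0.29, edgeR adjusted p 0.0598).

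Within each genotype, where 2 libraries stood against 2, the calls were fewer. In wildtype mice 0 of the 5 genes passed, where 0.895% of all genes did: Ifng differed by -0.84 ± 0.20, Tbx21 by -0.89 ± 0.30, Il12rb2 by -0.71 ± 0.27, Il18rap by -0.21 ± 0.13 and Il18r1 by 0.07 ± 0.14 on the log2 scale, with edgeR adjusted p-values of 0.0789 for Ifng and 0.173 or more for the others. In S203AKI mice 2 of 5 passed, where 7.4% of all genes did (3.46% higher, 3.94% lower). There Ifng fell by 0.97 ± 0.20 (edgeR adjusted p 0.0314) and Il18r1 rose by 0.56 ± 0.14 (edgeR adjusted p 0.0407). Without the cells of highest heat-shock share, the Ifng value in S203AKI mice was -0.65 and no longer passed (edgeR adjusted p 0.0691). It also failed to pass without any 1 of the 4 S203AKI libraries, at -1.11 to -0.83, and Il18r1 failed without either wildtype untreated library (0.56 each), either S203AKI untreated library (0.50 and 0.62) or S203AKI DSS replicate 1 (0.38).

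A pass in one genotype and not in the other does not show a difference, so the difference itself was tested. None of the 5 genes passed for the difference between the DSS effects, where 0 of 11063 genes (0.0%) passed by edgeR, 427 had an unadjusted p under 0.05 and DESeq2 called 0. The DSS effect on Il18r1 was larger by 0.49 ± 0.20 in S203AKI mice (edgeR, unadjusted p 0.0296, adjusted p 0.999), and that on Il18rap by 0.40 ± 0.18 (unadjusted p 0.0490). For Ifng the effects differed by -0.13 ± 0.28. By DESeq2 the DSS effects differed by 0.62 ± 0.34 for Il12rb2 and by 0.08 ± 0.42 for Tbx21, without passing.

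**Figure D2:**
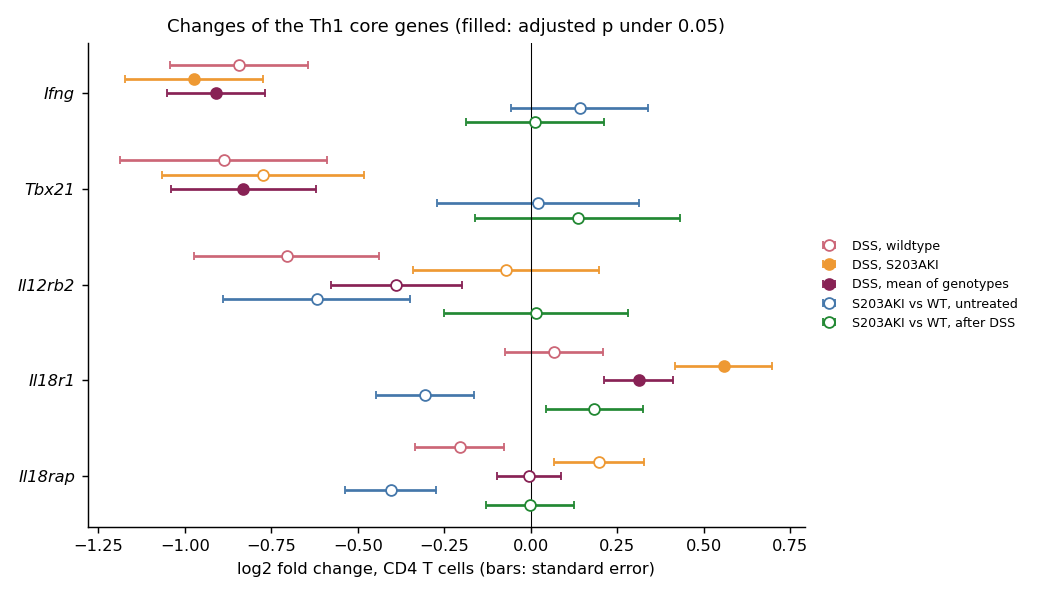
Log2 fold changes of the 5 genes in the CD4 T cells with their standard errors (bars), for DSS against untreated in each genotype and averaged, and for S203AKI against wildtype in each treatment; filled points have an edgeR adjusted p under 0.05. Filled points are found at Ifng, Tbx21 and Il18r1 for DSS and at none of the genes for genotype.

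Genotype made no difference that passed the test. Against wildtype, 0 of the 5 genes were called in untreated mice and 0 after DSS, where 0.0% of all genes were called by edgeR in either (572 and 183 genes had an unadjusted p under 0.05, and DESeq2 called 16 higher and 2 lower in untreated mice and 0 after DSS). In untreated mice the log2 differences of the receptor chains, S203AKI minus wildtype, were negative and did not pass: Il18rap had -0.41 ± 0.13 (edgeR, unadjusted p 0.00951, adjusted p 0.688), Il12rb2 -0.62 ± 0.27 (adjusted p 0.938) and Il18r1 -0.31 ± 0.14 (adjusted p 0.938). For each of the 3 receptor genes, both S203AKI untreated libraries lay below both wildtype ones. The share of all genes that lie apart in this way was not computed, so no genotype effect is read from it. The S203AKI untreated libraries are the 2 with 36.2% and 30.4% of CD4 T cells among those of highest heat-shock share. Without such cells 0 of the 5 genes were called, as with them, so this count does not show whether the differences depend on those cells. Ifng differed by 0.14 ± 0.20 and Tbx21 by 0.02 ± 0.29 in the same comparison. After DSS the 5 differences lay between -0.00 and 0.18, with standard errors of 0.13 to 0.30.

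Some further markers moved with DSS in the same sums. Foxp3, the defining factor of regulatory T cells, rose by 1.39 ± 0.12 on the log2 scale (edgeR adjusted p 0.000254), and the cluster named Treg-like, which is low in Ifng and Tbx21, held 7.92% to 10.8% of CD4 T cells in untreated libraries and 14.1% to 19.6% after DSS. Of other clusters low in Ifng, the Tfh-like one held a mean of 18.2% untreated and 12.4% after DSS. One led by Klrg1, Il1rl1 and Foxp3 held 3.79% and 9.20%. A T cell cluster high in Ifng, led by Gzmk, Esm1 and Fasl, held 1.05% and 7.71%. The 6 genes of the T cell receptor complex and its CD3 chains summed to 3503 to 3999 CPM in the untreated libraries and to 2758 to 3311 after DSS, without overlap, so the CD4 T cells as sorted by cluster held a smaller share of such UMIs after DSS. The 8 NK cell markers summed to 63.7 to 142 CPM untreated and 41.8 to 97.3 after DSS; Gzma made up most of that, Ncr1 was at 0.322 or less and Klra4 at 0 in every library. Of the same list, Eomes (0.805 to 4.45 CPM untreated, 6.22 to 11.6 after DSS) and Prf1 (0.483 to 1.96 and 2.08 to 3.96), which encodes perforin, were higher after DSS without overlap. The rest of the list overlapped. Mean CPM was lower after DSS for Gzma (91.1 untreated, 66.9 after DSS), Klrb1c (2.81 and 1.21) and Ncr1 (0.194 and 0). It was higher for Klre1 (0.586 and 0.843) and Klra8 (0 and 0.0347). The 7 macrophage markers, all detected, summed to 39.8 to 86.1 CPM untreated and 55.4 to 216 after DSS. Of these Mrc1, the mannose receptor, which is also among the leading genes of the T cell cluster led by Gzmk, Esm1 and Fasl, ran from 1.05 to 4.02 CPM untreated and from 6.52 to 43.1 after DSS without overlap, and the other 6 overlapped. Cd8a did not exceed 1.66 CPM in any library. The part of these markers in the changes of Ifng, Tbx21 and Il18r1 was not tested.

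T cells outside the authors' list, from the same libraries but other barcodes, gave Ifng levels of 186 and 242 CPM in wildtype untreated, 195 and 172 in S203AKI untreated, 118 and 115 in wildtype DSS and 120 and 107 in S203AKI DSS. Tbx21 ran from 17.9 to 26.0 CPM untreated and from 10.5 to 18.4 after DSS. Il18r1 ran from 145 to 225 CPM untreated and from 238 to 306 after DSS. In these barcodes Ifng and Il18r1 did not overlap between treatments and Tbx21 did. The share of all genes without overlap was not computed. Among them is a cluster high in Ifng led by Hspa1a and Hspa1b. It held 74 and 144 cells in wildtype untreated, 397 and 201 in S203AKI untreated and 50 to 96 per DSS library. Its part in the Ifng gap was not tested. The T cells outside the list also include a CD8 T-like cluster of 408 cells. The barcodes outside the list share preparation and animals with the listed cells, so they are no independent replicate.

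Across cell classes the 5 genes did not share a single pattern, and only some followed the Th1-like cluster. Classes were clusters of cells named from fixed marker lists that hold none of the 5 genes, the 5 genes were also left out of the clustering, and class levels are ordered over 13 T and innate lymphoid classes and given as means ± SD over libraries with at least 20 cells of the class. Th1-like cells (2331 listed cells, named from markers that include Cxcr3, Nkg7, Ccl5, Ccl4, Cxcr6 and Gzmk, with Eomes and Gzma among their leading genes) had Ifng at 422 ± 94 CPM (n = 8). Th17-like cells (3455 listed cells, led by Il17f and Il17a) were close behind at 390 ± 143 CPM (n = 8). Next came an unnamed listed cluster led by Gzmk, Esm1 and Fasl at 352 ± 149 CPM (n = 6) and NK or ILC1-like cells outside the list at 331 ± 160 CPM (n = 6). None of these neighbours differed by more than the larger SD. The 6 libraries behind the Gzmk Esm1 Fasl cluster are 4 DSS and 2 untreated ones, against 4 and 4 for the other listed classes, so its place in each order below mixes class with treatment. Treg-like cells stood near the bottom of the 13 classes, at 36.5 ± 17.4 CPM (n = 8).

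Tbx21 separated the classes more sharply. NK or ILC1-like cells had 114 ± 42 CPM (n = 6), Th1-like cells 58.7 ± 9.4 (n = 8) and the Gzmk Esm1 Fasl cluster 43.3 ± 14.1 (n = 6), and the steps between these 3 exceeded the larger SD. Th17-like cells had 20.5 ± 8.5 CPM (n = 8), close to the 20.4 ± 6.5 of an unnamed cluster led by Serpinb1a, Pxdc1 and Tmem176a. So the listed Th17-like cells came near the listed Th1-like cells in Ifng while lying well below them in Tbx21.

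Il12rb2 formed a high and a low set. NK or ILC1-like cells had 150 ± 35 CPM, Th1-like cells 148 ± 23, the Gzmk Esm1 Fasl cluster 143 ± 30, CD8 T-like cells 104 ± 42 and the Serpinb1a cluster 96.0 ± 18.6. Below a step wider than the SD came Th17-like cells at 44.8 ± 10.6 CPM, and the rest followed down to 24.4 ± 14.4 in Treg-like cells and 16.9 ± 23.7 in ILC3-like cells outside the list. The listed Th17-like cells were thus in the low set for Il12rb2. The Serpinb1a cluster, in the high set, was left unnamed, and Th17-like was its best-scoring name.

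The IL-18 receptor chains reached further across classes. Il18r1 had 438 ± 69 CPM in the Gzmk Esm1 Fasl cluster, 379 ± 141 in NK or ILC1-like cells, 363 ± 95 in the Serpinb1a cluster, 331 ± 65 in Th1-like cells and 309 ± 64 in Th17-like cells, with no step among them wider than the SD. A step led to 244 ± 59 CPM in an unnamed cluster led by Klrg1, Il1rl1 and Foxp3, genes of tissue regulatory T cells, while Treg-like cells had 131 ± 30 and Tfh-like cells 74.9 ± 22.1. Il18rap was, among these 13 classes, highest in NK or ILC1-like cells at 175 ± 26 CPM, then Th1-like cells at 148 ± 26, the Klrg1 Il1rl1 Foxp3 cluster at 113 ± 35 and Th17-like cells at 108 ± 16. Neutrophils outside the list had Il18rap at 169 ± 49 CPM and Il18r1 at 27.8 ± 10.6 CPM (n = 4, all DSS libraries, with 20 to 63 cells each; the untreated libraries had 9 to 15 and are not in the mean).

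**Figure D3:**
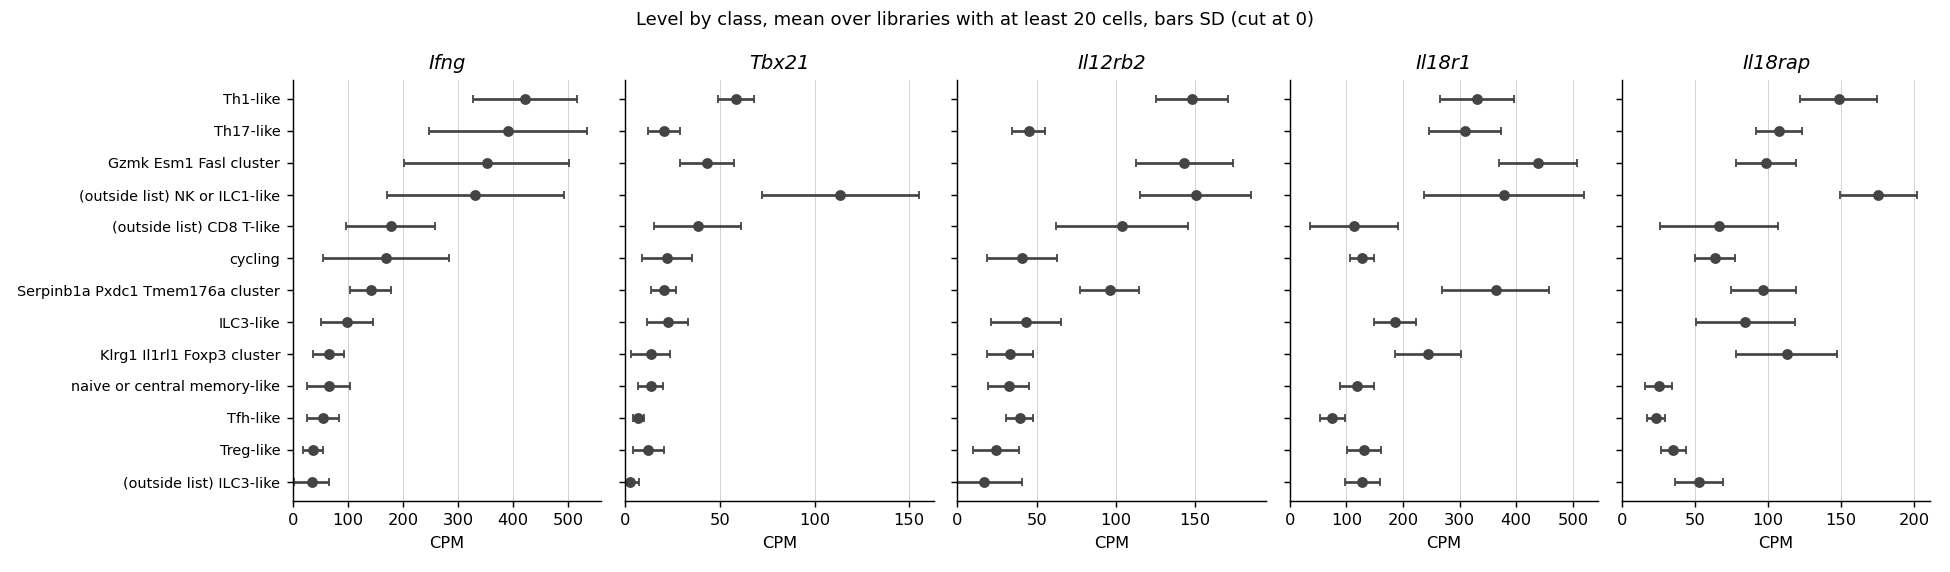
Mean level (CPM, linear axes from 0) of the 5 genes in 13 T and innate lymphoid classes, ordered by Ifng; bars are the SD over libraries with at least 20 cells of the class (6 or 8 libraries), cut at 0. Th17-like cells lie near Th1-like cells for Ifng (390 and 422) and far below them for Tbx21 (20.5 and 58.7) and Il12rb2 (44.8 and 148).

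T cell clusters outside the list repeated only parts of these levels. Th1-like cells outside the list (1182) had Ifng at 408 ± 131 CPM, Tbx21 at 58.3 ± 17.0, Il12rb2 at 210 ± 30, Il18r1 at 434 ± 102 and Il18rap at 182 ± 33 (n = 8). The closeness of Th17-like to Th1-like cells in Ifng was not repeated there: a Th17-like cluster outside the list led by Il17a and Il17f (6919 cells) had Ifng at 281 ± 47 CPM and a second one (5303 cells) at 104 ± 23, with Tbx21 at 14.1 ± 5.4 and 15.1 ± 3.6 (n = 8). The leading genes of the second one begin with the mast cell proteases Mcpt1, Mcpt4 and Tpsb2, ahead of Il17a, so its name is less sure. Over all cells of each, Il12rb2 was at 35.5 CPM in the first of these Th17-like clusters and at 81.4 in the second. The low Il12rb2 of the listed Th17-like cells was thus not repeated in the second. The highest mean Ifng level among the 37 classes given was in 1108 T cells outside the list whose leading genes are Hspa1a, Il22 and Egr2, at 795 ± 299 CPM (n = 8), with Tbx21 at 81.2 ± 29.3 and Il12rb2 at 58.9 ± 14.6. Heat-shock and early activation genes lead that cluster, and it was left unnamed. Classes that should lack Ifng also had some UMIs: B cells outside the list had 17.4 ± 16.9 CPM, endothelium 7.01 ± 4.81 and the largest fibroblast cluster outside the list 38.1 ± 19.8, while the largest fibroblast cluster among the listed cells, which all carry a Cd4 UMI, had 116 ± 47. Of the cells in this listed cluster 38.1% were among the barcodes of highest doublet score, and 23.3% and 51.5% in the other 2 listed fibroblast clusters.

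Over the 13 class means, the genes with the closest profile were named by the highest Pearson r of log2(CPM + 1) among 6960 genes, as a description in which all genes share libraries and depth. For Ifng these were Srsf2 (r = 0.919), Fasl, Adgre5, Calm2 and Papd7. For Tbx21 they were Mtfr1 (0.913), Sirt1, Fasl, Dbr1 and Il12rb2 (0.885), and for Il12rb2 Fasl (0.925), Pik3r5, Dusp2, Tbx21 and Mtfr1. For Il18r1 they were Calca (0.906), Il18rap (0.861), Rgs1, Bcl2a1d and Kctd10, and for Il18rap Bcl2a1d (0.899), Rgs1, Ppp1r16b, Calca and Il18r1. Among themselves, Ifng, Tbx21 and Il12rb2 had r of 0.835 to 0.885 and the IL-18 receptor chains 0.861, against 0.624 to 0.735 between these sets.

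Levels were then compared within classes. The cells a class holds can differ between the groups: in the Th1-like cluster Eomes was higher by 3.74 ± 0.44 and Gzmk by 1.79 ± 0.30 on the log2 scale after DSS (edgeR adjusted p 0.000644 and 0.00843), and the neighbouring Gzmk Esm1 Fasl cluster had 12 to 34 cells per untreated library and 94 to 522 per DSS library. A change of level within Th1-like cells and a change in which cells fall into the cluster cannot be told apart. In Th1-like cells Ifng stood at 362 and 564 CPM in wildtype untreated, 510 and 478 in S203AKI untreated, 425 and 411 in wildtype DSS and 272 and 350 in S203AKI DSS. The groups overlapped through wildtype untreated replicate 1. Ifng fell by 0.45 ± 0.13 on the log2 scale (edgeR adjusted p 0.0305), 1 of 5 genes called where 8.78% of 6891 genes were (3.66% higher, 5.12% lower). The call was lost without wildtype untreated replicate 2 (-0.27), S203AKI untreated replicate 1 (-0.44), wildtype DSS replicate 1 (-0.47) or wildtype DSS replicate 2 (-0.43), with the coarser clustering (-0.58, edgeR adjusted p 0.219), and without the cells of highest heat-shock share (-0.39, edgeR adjusted p 0.108). DESeq2 gave -0.45 with an adjusted p of 0.0719. The coarser clustering named 6789 cells Th1-like, against 2331 in the main one, so its value covers another set of cells. Tbx21 in Th1-like cells ran from 46.1 to 73.1 CPM untreated and from 48.6 to 62.9 after DSS, and Il12rb2 from 129 to 180 and from 117 to 163; their log2 differences of -0.21 ± 0.17 and -0.09 ± 0.14 did not pass (edgeR adjusted p 0.479 and 0.722). Il18rap ran from 113 to 141 CPM untreated and from 163 to 179 after DSS without overlap. Its log2 difference of 0.37 ± 0.13 did not pass (edgeR adjusted p 0.0643). The share of all genes without overlap was not computed in this class or the classes below. A lack of overlap is therefore not read as support.

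In Th17-like cells Il18r1 stood at 295 and 255 CPM in wildtype untreated, 240 and 229 in S203AKI untreated, 335 and 403 in wildtype DSS and 366 and 346 in S203AKI DSS. Every DSS library lay above every untreated one, and Il18r1 rose by 0.49 ± 0.11 on the log2 scale (edgeR adjusted p 0.0111), 1 of 5 genes called where 5.57% of 7366 genes were (2.85% higher, 2.72% lower). The call was lost without wildtype untreated replicate 2 (0.42) or without S203AKI untreated replicate 1 (0.49) or replicate 2 (0.47), at edgeR adjusted p-values of 0.0541 to 0.111. Ifng in these cells stood at 250 and 555 CPM in wildtype untreated, 630 and 432 in S203AKI untreated, 265 and 412 in wildtype DSS and 291 and 285 in S203AKI DSS. The untreated libraries spread widely, and the log2 difference of -0.60 ± 0.31 did not pass (edgeR adjusted p 0.333). Il17a, the signature cytokine of the class, ran from 1829 to 3851 CPM untreated and from 1732 to 3669 after DSS.

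In Treg-like cells Tbx21 stood at 24.8, 11.6, 19.0 and 20.7 CPM in the untreated libraries and at 3.94, 8.57, 4.88 and 4.84 after DSS, without overlap. The effector genes Nkg7 (by 1.57 ± 0.23), Ccl3 (by 2.39 ± 0.64) and Tnf (by 1.14 ± 0.33) fell in the same cells on the log2 scale. Whether the cluster held other cells in the 2 treatments was not tested. The low-count filter kept Tbx21 here only through untreated libraries, as no DSS library reached its level. The call is therefore no separate support for the gap. Tbx21 fell by 1.79 ± 0.40 on the log2 scale (edgeR adjusted p 0.00682), 1 of 5 genes called where 10.2% of 7216 genes were (4.77% higher, 5.39% lower). These values rest on 5 to 14 Tbx21 UMIs per library, and without wildtype untreated replicate 1 the value was -1.48 and did not pass (edgeR adjusted p 0.0825). Il18r1 ran from 75.3 to 143 CPM untreated and from 139 to 171 after DSS, at 0.42 ± 0.15 (edgeR adjusted p 0.0849). Il18r1 thus had a positive DSS difference in each of the 3 classes tested, 0.26 ± 0.12 in Th1-like cells, and passed in Th17-like cells; whether the classes differ was not tested.

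**Figure D4:**
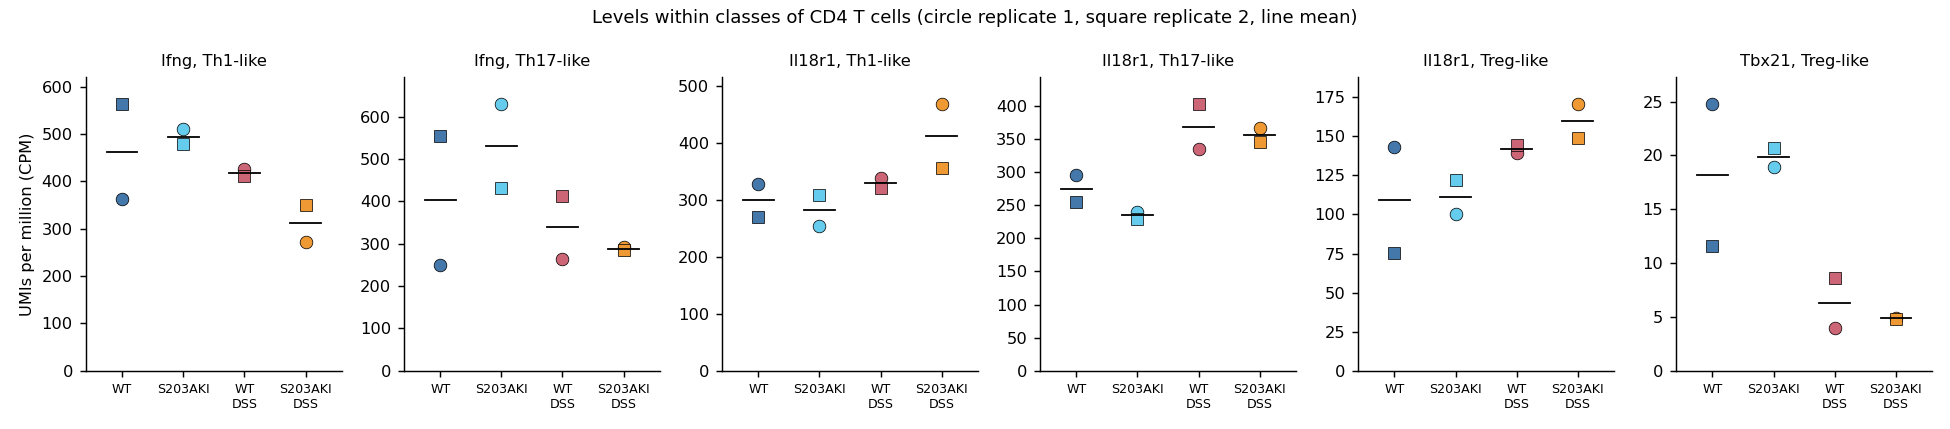
Levels (CPM, linear axes from 0) of Ifng in Th1-like and Th17-like cells, of Il18r1 in Th1-like, Th17-like and Treg-like cells and of Tbx21 in Treg-like cells, by library; circles are replicate 1, squares replicate 2 and lines the group mean. The DSS libraries lie above all untreated ones for Il18r1 in Th17-like cells (335 to 403 against 229 to 295). They lie below all for Tbx21 in Treg-like cells (3.94 to 8.57 against 11.6 to 24.8). The share of all genes without overlap was not computed.

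Genotype, averaged over the treatments, gave 0 of the 5 genes in Th1-like cells (0.029% of all genes called), 0 in Th17-like cells (0.0%) and 0 in Treg-like cells (0.0%). With edgeR, 372, 304 and 239 genes had an unadjusted p under 0.05 in these fits, and DESeq2 called 2, 0 and 0. Il12rb2 had the lowest p of the 5 genes in 2 of them. It differed by -0.52 ± 0.18 in Th17-like cells (edgeR, unadjusted p 0.00727, adjusted p 1.0) and by -0.80 ± 0.28 in Treg-like cells (edgeR, unadjusted p 0.00893, adjusted p 1.0). In Th17-like cells it stood at 53.7 and 45.8 CPM in wildtype untreated, 45.9 and 31.5 in S203AKI untreated, 46.9 and 63.6 in wildtype DSS and 34.6 and 36.8 in S203AKI DSS. In Th1-like cells the Il12rb2 difference was -0.11 ± 0.14. NK or ILC1-like cells had 9 to 38 cells per library and were not tested.

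The clusters in which Ifng UMIs lay varied between libraries. Of the Ifng UMIs of CD4 T cells, Th17-like cells held a mean of 30.5% in untreated libraries (15.7% to 53.6%) and 35.6% after DSS (14.0% to 66.6%). Th1-like cells held 30.5% (16.5% to 39.0%) and 18.6% (5.56% to 29.0%), cycling cells 15.8% and 10.1%, and the Gzmk Esm1 Fasl cluster 1.83% and 12.2%. The shares depend on which cells fall into each cluster. Eomes and Gzmk, which lead or name the Th1-like cluster, were higher after DSS within it while neither passed over all CD4 T cells, so the shares are not read as a change in the number of Th1 cells.

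**Figure D5:**
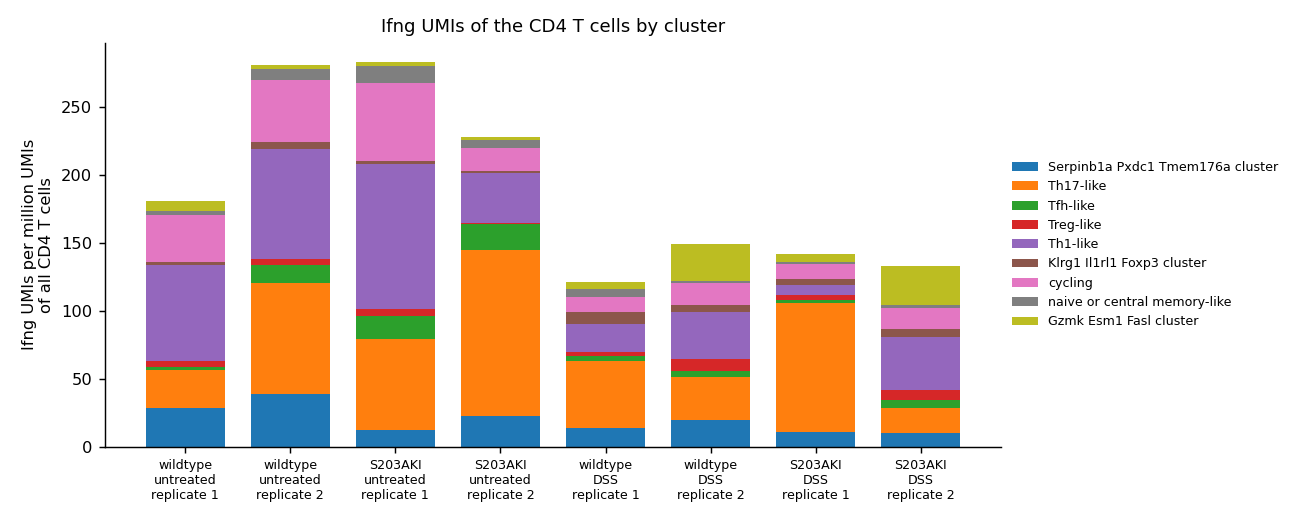
Ifng CPM over the UMIs of all CD4 T cells in each library, stacked by the cluster the cells belong to; the height of a bar is the library's Ifng level. The bars of the 4 DSS libraries (121 to 149) are lower than those of the 4 untreated libraries (181 to 284), and the Th17-like part makes up from 14.0% to 66.6% of a bar.

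The share of single cells with a UMI was compared next. With each cell thinned to 1000 UMIs, so that depth was equal (597 shallower cells of 20759 left out), 14.8 ± 1.8% (SD, n = 4) of untreated and 9.50 ± 0.52% (n = 4) of DSS CD4 T cells had an Ifng UMI. Tbx21 was found in 2.91 ± 0.20% and 1.91 ± 0.61% of cells, and Il18r1 in 16.7 ± 1.9% and 22.1 ± 2.6%. For these 3 genes the 4 DSS and 4 untreated libraries did not overlap, which gives an exact two-sided permutation p of 0.0286, the smallest this design allows, and an adjusted p of 0.0952 over the 10 tests of 5 genes and 2 contrasts. None therefore passed the correction, and the share of all genes without overlap in such a comparison was not computed. Il12rb2 (6.35 ± 1.74% and 5.55 ± 1.90%) and Il18rap (7.12 ± 1.31% and 7.39 ± 0.53%) overlapped, as did S203AKI and wildtype for all 5 genes, at exact permutation p-values of 0.229 or more. Unthinned, Ifng was found in 26.7 ± 2.6% of untreated and 17.4 ± 1.8% of DSS cells without overlap, while Tbx21 (7.20 ± 0.93% and 4.38 ± 1.91%) and Il18r1 (34.3 ± 2.4% and 40.8 ± 5.1%) overlapped. The gap for Il18r1 at 1000 UMIs was narrow, from 19.32% in the highest untreated to 19.33% in the lowest DSS library. Il18r1 also overlapped at 500 and at 2000 UMIs, without doublets and without the cells of highest heat-shock share, and Tbx21 at 500 UMIs and without those heat-shock cells. Ifng did not overlap in any of these settings.

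Some UMIs of a gene can come from free RNA or from doublets, and the part of either in the shares below was not tested. At the same thinned depth, Ifng was found in 0.838% of B cells outside the list (median 1754 UMIs before thinning), 0.757% of endothelial cells (3873), 2.35% of fibroblasts outside the list (4834) and 1.68% of Treg-like cells (2499.5), against 27.9% of Th1-like (2311) and 20.9% of Th17-like cells (2273). Fibroblasts among the listed cells (8029), which like all listed cells carry a Cd4 UMI, were higher, with Ifng in 8.72% (3.54% to 14.6% by library), Il18r1 in 7.79% and Il18rap in 3.25%. That Ifng share is close to the 9.50% of all CD4 T cells after DSS, and what gives rise to it was not tested. Tbx21 was found in 0.489% of B cells, 1.05% of Treg-like, 2.14% of Th17-like and 6.19% of Th1-like cells. Fibroblasts among the listed cells had Tbx21 in 0.988% and Il12rb2 in 2.32%. These shares are close to those of Treg-like cells, which had Il12rb2 in 2.37%. Il18r1 was found in 1.54% of B cells, 11.7% of Treg-like, 24.9% of Th1-like and 28.2% of Th17-like cells.

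Ifng UMIs were unevenly spread over its positive cells. An Ifng-positive CD4 T cell held a mean of 2.08 to 3.69 UMIs depending on the library, single cells reached 72, and the top 10% of positive cells by UMIs held 32.9% to 45.1% of them. Tbx21 was sparse, with 1.08 to 1.22 UMIs per positive cell and 82.4% to 92.3% of positive cells at a single UMI. Counts this low cannot tell on-or-off expression from a low level in many cells. Il18r1 held 1.65 to 2.06 UMIs per positive cell. Few cells showed many of the genes at once: at 1000 UMIs, 58.8% to 65.9% of CD4 T cells had none of the 5, and 1.03% to 1.81% had 3 or more.

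Within each library the other 4 genes were found more often in cells with an Ifng UMI than in cells without. Over 2342 Ifng-positive CD4 T cells (247 to 371 per library, thinned), Tbx21 was found in 5.82 ± 1.71% of positive and 1.92 ± 0.50% of negative cells (SD, n = 8 libraries). Il12rb2 was found in 9.90 ± 2.78% and 5.45 ± 1.70%, Il18r1 in 27.8 ± 4.1% and 18.2 ± 3.9%, and Il18rap in 12.3 ± 1.6% and 6.56 ± 0.97%. Each difference was positive in 8 of 8 libraries, with an exact two-sided sign-flip permutation p of 0.00781, the smallest possible, also after adjustment over the 4 genes. Thinned to 500 UMIs, Tbx21 no longer passed (1.31 percentage points, exact permutation adjusted p 0.0625). Beside these, Il17a was found in 29.3 ± 16.5% of Ifng-positive and 15.8 ± 8.7% of negative cells, and Foxp3 in 1.90 ± 0.98% and 7.74 ± 3.48%. Il17a, which is no Th1 gene, was thus also higher in 8 of 8 libraries, by 13.4 percentage points. The share of all genes that would pass this test was not computed. The 4 passes are therefore not read as particular to these genes. Both chains of the IL-18 receptor were seen in only 1.37% to 2.49% of CD4 T cells at this depth. In every library Il18rap was more frequent in Il18r1-positive cells (9.27% to 12.7%) than in Il18r1-negative cells (5.16% to 8.11%).

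A list of 64 further genes of the pathway, of which 56 could be tested in the CD4 T cells, moved in both directions with DSS. By edgeR, 10 were higher and 5 lower after DSS averaged over the genotypes, with a median log2 difference of -0.02 over the list and 0.01 over all genes. Over all genes 9.53% were higher and 9.6% lower, so the 5 of 56 that fell are near the background share. Among 11 receptor chains and adaptors, 3 rose: Irak1 (0.65 ± 0.12) and Myd88 (0.41 ± 0.10), the kinase and adaptor downstream of the IL-18 receptor, and Il6st (0.56 ± 0.14), the shared gp130 chain. Of 5 JAK and STAT genes, Tyk2, the kinase bound to the IL-12 receptor, rose (0.49 ± 0.11) and Stat4, its main STAT, fell by 0.36 ± 0.09. These 5 genes had edgeR adjusted p-values of 0.00662 to 0.0217. None of the 15 surface and effector genes passed; the largest differences were those of Nkg7 (-0.95 ± 0.27, edgeR adjusted p 0.0667), Gzmk (0.73 ± 0.50) and Tnf (-0.69 ± 0.26).

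Of 6 transcription factors tested, Id2 fell by 0.49 ± 0.09 (edgeR adjusted p 0.00671), and Eomes, a T-box relative of T-bet, differed by 1.37 ± 0.48 without passing (edgeR adjusted p 0.0945). Of the ligands, Ebi3, a subunit of IL-27, rose by 0.91 ± 0.16 (edgeR adjusted p 0.00547). The 17 tested genes known to respond to interferon-gamma split: the GTPases Irgm2 (0.84 ± 0.14), Irgm1 (0.71 ± 0.14), Iigp1 (0.51 ± 0.15) and Gbp7 (0.40 ± 0.09) and the MHC class I activator Nlrc5 (0.37 ± 0.10) rose, while Cxcl10 (by 0.69 ± 0.18), the immunoproteasome subunit Psmb8 (by 0.50 ± 0.10) and the feedback inhibitor Socs1 (by 0.47 ± 0.09) fell. The edgeR adjusted p-values of these 8 ran from 0.00371 to 0.0384. So 5 of these 17 rose and 3 fell, where 9.53% and 9.6% of all genes did, and with 17 genes no more is read from the counts. In S203AKI mice alone 8 of 56 list genes were higher and 3 lower after DSS, where 3.46% and 3.94% of all genes were; the lower ones are near that share. In wildtype mice 0 of 56 passed, where 0.895% of all genes did, so fewer than 1 would be called at that share. For genotype 0 passed in either treatment; the difference between the DSS effects gave 0 of 56.

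Within Th1-like cells 47 list genes were tested, of which 4 were higher and 4 lower (3.66% and 5.12% of all genes). Id2 fell by 0.46 ± 0.10, Psmb8 by 0.56 ± 0.13, Tnf by 1.07 ± 0.29 and Il27ra, the IL-27 receptor chain, by 0.76 ± 0.24 (edgeR adjusted p 0.00445 to 0.0404). The genes that passed as higher, Eomes, Gzmk and Cxcr6 among them, lead or name this cluster and are not read further. In Th17-like cells 44 were tested, 1 higher and 3 lower (2.85% and 2.72% of all genes): Nkg7 fell by 0.79 ± 0.12, Il12rb1, the shared chain of the IL-12 and IL-23 receptors, by 0.88 ± 0.23 and Psmb8 by 0.46 ± 0.13, and Nlrc5 rose by 0.56 ± 0.16 (edgeR adjusted p 0.000457 to 0.0442). In Treg-like cells 46 were tested, 2 higher and 7 lower, where 4.77% and 5.39% of all genes were, so the 2 higher ones are near the background share. Tyk2 (1.34 ± 0.29) and Irgm2 (0.74 ± 0.21) rose, and among those that fell were Ccl3 (by 2.39 ± 0.64), Nkg7 (by 1.57 ± 0.23) and Id2 (by 0.87 ± 0.10), with edgeR adjusted p-values of 2.97e-05 to 0.0252.

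The cytokines that these receptors bind were looked for in the other cells of the libraries. Il12b, a subunit of IL-12 and IL-23, was highest, among the classes compared, in mature dendritic cells outside the list, at 147 ± 78 CPM (n = 8), with 146 CPM untreated and 147 after DSS. An unnamed cluster of 536 listed cells also had Il12b, Ccl22 and Ccl17 among its leading genes, and its Il12b level is not given here. Il12a, the other subunit of IL-12, was highest, among the classes compared, in B cells at 10.2 ± 4.9 CPM and gave only 13 UMIs in 1352 mature dendritic cells. Il18 was at 12.6 ± 3.1 CPM in macrophages outside the list and at 19.6 to 28.1 CPM in a cluster outside the list led by Chil3, Clec4e and Il1b. Il18bp, the secreted decoy that blocks IL-18, was at 45.7 to 69.4 CPM in untreated and 101 to 215 after DSS in these macrophages, without overlap, and in the macrophages among the listed cells at 63.0 to 74.8 and 96.8 to 245. In the Chil3 Clec4e Il1b cluster, Il12b ran from 8.42 to 25.2 CPM untreated and from 0 to 1.46 after DSS, and Il27 from 9.85 to 41.4 and from 0.881 to 6.53, both without overlap and on 44 and 77 UMIs in all. These ligand levels are descriptions and were not tested.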

How the data were processed

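The files were tables of UMI counts per gene and barcode for 8 libraries made with the Chromium Single Cell 3′ kit. Per the submitters' processing notes the authors used Cell Ranger 3.1.0, Seurat 4.0.1 and mm10; the deposited counts are whole numbers, and a deposited list names the cells the authors kept. How they chose these, and whether counting used strand, is not given in the sources used here. The 5 genes and all lists were chosen with earlier results of these data known.

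Barcodes with at least 400 genes and at most 20% mitochondrial UMIs (96721) were clustered, listed cells and others apart, with scanpy 1.11.5 and leidenalg 0.10.2 (2000 variable genes less the 5 genes and others left out, 30 components, 15 neighbours, resolution 1.0). Clusters were named from fixed markers, needing 3 detected markers and a margin over the next name. Scrublet, run through scanpy, marked only 2 barcodes by its automatic threshold, so doublets stay in and the top 6% by score were left out as an alternative.

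UMI counts were summed per library and class and tested with edgeR 4.0.16 (R 4.3.3; quasi-likelihood, TMM, filterByExpr, group means over 8 libraries, Benjamini-Hochberg, call at adjusted p under 0.05); DESeq2 1.42.0 was an alternative. On simulated CD4 T counts for 11063 genes, edgeR called 78% of 100 genes changed 2-fold and 96% of 100 changed 4-fold, with 9 false calls, for DSS averaged over genotypes. Shares of cells were compared after thinning to 1000 UMIs by exact permutation over libraries (scipy 1.17.1). Of the 64 other genes, those named passed the test or were among the 5 largest of the rest. Motifs were searched in RefSeq promoters, and positions come from the GRCm38 annotation. Alternatives were the filter, the tool, the libraries fitted, the cells kept, the thinning depth, the resolution and each library left out. Values of a few other genes are not reported here.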

Additional observations from a re-analysis of the deposited data

Results flagged for a closer look

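Of 50 groups of 4 libraries looked at, 2 held a library that stood apart from the other 3, where chance flags about 1 in 20 groups. Il18r1 in the CD4 T cells after DSS was at 297.7 CPM in S203AKI DSS replicate 1, and its gap to the nearest library was 0.851 of the range, above Dixon's critical value for 4 samples. Il18rap in untreated Th17-like cells was at 142.7 CPM in wildtype untreated replicate 1, with a gap of 0.851 of the range.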

How the results depend on the processing

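Of 440 values recomputed under alternatives, 361 kept their direction and side of the threshold, or stayed within 1.5 times. The others were 38 single values that lost a call, 2 that gained one, 32 counts of called genes that went up or down by more than 1.5 times, and 7 values that changed sign. For alternatives other than DESeq2 the share of all genes called is not given. Their counts of called genes, here and below, therefore have no background beside them and are not read as support. With no filter on low counts, 3 of the 5 genes were called for DSS in wildtype mice, 1 for S203AKI in untreated mice, 2 in Th17-like and 2 in Treg-like cells for DSS, and Il12rb2 passed for DSS in CD4 T cells (-0.37, edgeR adjusted p 0.00400). DESeq2 called 1 for DSS in wildtype mice (Ifng, -0.85, DESeq2 adjusted p 0.00230) and 0 in Th1-like cells, gave Il18r1 0.31 in CD4 T cells (adjusted p 0.0503), and gave Tbx21 in Treg-like cells no adjusted p. Adding barcodes outside the list gave 1 in wildtype mice. Fitting only the libraries compared, or leaving out the cells of highest heat-shock share, gave 1 in S203AKI mice. In Th1-like cells the latter gave 0 and leaving out doublets gave 2. The coarser clustering gave 2 in Treg-like cells. Il18rap in CD4 T cells changed sign at 0.00839 with no filter, 0.0895 with barcodes outside the list, 0.0103 without heat-shock cells and ran from -0.0598 to 0.0690 with a library left out. The cause of these differences was not tested. The cells without highest heat-shock share were an alternative chosen after seeing the data, as was the share of doublets left out.

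Leaving out 1 library at a time, the genes called for DSS numbered 1 to 3 over both genotypes, 0 to 1 in wildtype, 0 to 2 in S203AKI, 0 to 1 in Th1-like and 0 to 2 in Th17-like cells. The DSS difference in the share of Th1-like cells was -9.25 percentage points with overlapping groups (exact two-sided permutation p 0.0857), ran from -11.9 to -6.39 with a library left out, overlapping in all but the fit without S203AKI untreated replicate 2, and is not reported above because genes that define the cluster differ between the groups. Over all genes, edgeR and DESeq2 called 1054 and 607 higher and 1062 and 760 lower for DSS in CD4 T cells, 58 and 99 higher and 41 and 114 lower in wildtype, 383 and 238 higher and 436 and 348 lower in S203AKI, 252 and 52 higher and 353 and 125 lower in Th1-like, 210 and 86 higher and 200 and 104 lower in Th17-like, and 344 and 134 higher and 389 and 213 lower in Treg-like cells. Leaving out T clusters led by heat-shock genes was not run, since no listed T cluster was led by them. No paired analysis was run because the labels state no pairs: each library title has a number of its own, whose meaning is not stated, and replicates were numbered in accession order. The title numbers lie close together for a wildtype and an S203AKI library of the same treatment. Whether this marks pairs is not given, so the genotype tests do not account for pairs. Depth limits Tbx21 most, with 84 to 319 UMIs per library in CD4 T cells.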
